A study of Mus musculus with 12 samples.

Results

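The mitochondrial genome carries 7 genes for subunits of respiratory complex I, mt-Nd1, mt-Nd2, mt-Nd3, mt-Nd4, mt-Nd4l, mt-Nd5 and mt-Nd6, and their mRNAs were followed in total RNA and in polysomal RNA with and without rosiglitazone (Rosi), a drug that activates PPARγ. They are 7 of the 35523 genes with a transcript in the data and 7 of the 13 mRNAs of the mitochondrial genome, and each is represented by 1 transcript. All 7 genes of the class were taken, but the class was selected on fold changes of Rosi against vehicle (Veh) in these same libraries. The values of the members are therefore given as a description with no p. Where a count of members that passed a calling rule is printed, it stands beside the share of all genes that passed, and nothing is read from it. The cells were the stromal vascular fraction (SVF) of epididymal fat from male Lepob/Lepob mice of 12 weeks, which lack leptin and are obese, grown as primary cultures. All of them received a differentiation cocktail (insulin, dexamethasone and the phosphodiesterase inhibitor IBMX) and then insulin alone, throughout with either 1 µM Rosi or the solvent DMSO (Veh). They were taken at day 4 of differentiation, after a short exposure of both treatments to cycloheximide, which stalls cytosolic ribosomes on mRNA. Each treatment gave a set of input libraries, made from total RNA, and a set made from the polysome fractions of a sucrose gradient. The libraries of the second kind carry the tissue name in their titles and not the word polysome, and they were taken for the polysome pool because the rest are called input. Each of the 4 groups had 3 deposited libraries. In input Veh, replicate 3 repeated replicate 2 in each of the 117135 transcripts, so the pair entered as a single library. This gave n = 2 in input Veh, n = 3 in each other group and 11 libraries in all.

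Complex I passes electrons from NADH to ubiquinone and pumps protons across the inner mitochondrial membrane. Its mitochondrially encoded subunits form the membrane arm, whereas the subunits that carry the redox centres and many accessory subunits are encoded in the nucleus, translated in the cytosol and imported. Mitochondrial mRNAs are cut from long transcripts of the 2 strands of the circular genome and are translated by the ribosomes of the mitochondrion itself. Most have almost no untranslated sequence. Polysomes taken from whole cells are in the main those of the cytosol, and how much of the mitochondrial mRNA in the pool was bound to mitochondrial ribosomes was not measured.

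The first 30 bases of each mRNA are shown because these mRNAs begin at or next to the start codon and differ in it. The codon is in capitals, and each sequence was read from GENCODE M21 transcripts (mm10).
mt-Nd1: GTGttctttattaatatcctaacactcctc
mt-Nd2: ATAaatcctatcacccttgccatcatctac
mt-Nd3: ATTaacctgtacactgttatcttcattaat
mt-Nd4l: ATGccatctaccttcttcaacctcaccata
mt-Nd4: ATGctaaaaattattcttccctcactaatg
mt-Nd5: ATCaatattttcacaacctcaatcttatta
mt-Nd6: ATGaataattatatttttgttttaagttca
The annotated coding sequences of 3 members open with ATG and those of the other 4 with another codon that mitochondria read as a start. On chromosome M the members lie at 2751 to 3707 (mt-Nd1), 3914 to 4951 (mt-Nd2), 9459 to 9806 (mt-Nd3), 9877 to 10173 (mt-Nd4l), 10167 to 11544 (mt-Nd4), 11742 to 13565 (mt-Nd5) and 13552 to 14070 (mt-Nd6). Each is a single exon, and mt-Nd6 is the only member on the minus strand. That strand is visible in its composition, with 28.1% G and 5.97% C, while mt-Nd5 has 9.98% G and 27.1% C.

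Neighbours also overlap. The last codons of mt-Nd4l hold the start of mt-Nd4, and the 7 shared bases are in capitals.
mt-Nd4l and mt-Nd4: caacctactacaATGCTAAaaattattctt
The ends of mt-Nd5 and mt-Nd6 share 14 bases on opposite strands, in capitals in the end of mt-Nd5.
mt-Nd5 and mt-Nd6: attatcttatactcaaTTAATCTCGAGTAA
Whether the library kit kept the strand was not stated in the sources used here, so RNA copied from the opposite strand of a member could not be told apart from the member.

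The libraries held 17368700 to 23909500 estimated reads on genes. The 13 mitochondrial mRNAs took 0.757 to 1.44% of the reads of all genes, and the 7 complex I mRNAs 0.191 to 0.463%. Polysome and input lay on opposite sides of the first principal component (62.2% of the variance). On it, polysome Veh replicate 1 (−47.4) stood apart from replicates 2 and 3 (−24.7 and −19.1). Polysome Rosi replicate 3 (−38.9) stood apart less clearly from replicates 1 and 2 (−25.3 and −30.1). Results in polysomal RNA are also given without both, a removal chosen after values were seen. The cultures were mixed. The 10 macrophage markers summed to 16818 to 19351 CPM (counts scaled to a common library size) in input Veh and 12031 to 14123 CPM in input Rosi, and to 16660 to 21723 and 14966 to 18937 CPM in polysome Veh and polysome Rosi. The 10 adipocyte markers summed to 279 to 292 CPM in input Veh and 924 to 1147 CPM in input Rosi, and to 363 to 506 and 1666 to 2032 CPM in the polysome groups. Between Veh and Rosi the adipocyte sums did not overlap in either fraction, and the macrophage sums did not overlap in input but did in polysome. In input the 6 smooth muscle and pericyte markers, at 11566 to 11688 CPM in Veh and 10152 to 10690 CPM in Rosi, did not overlap either, nor did Crisp1, the single epididymis marker detected of 5, at 112 to 124 and 72.2 to 91.6 CPM. Both overlapped in polysome. Sums of the progenitor, endothelial and mesothelial markers overlapped between treatments in both fractions, and the 6 lymphocyte markers stayed at or below 0.267 CPM in every library. The part of these cell types in the values of the complex I mRNAs was not tested. In such bulk RNA, fewer cells of a type and less RNA per cell cannot be told apart.

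Levels were first compared between the members per length, in TPM, the share of transcripts scaled for length and library size. In input Veh mt-Nd1, the subunit next to the ubiquinone site, was the most abundant at 2101 ± 108 TPM (SD, n = 2). It was followed by mt-Nd3 at 1190 ± 219 TPM and by mt-Nd2, mt-Nd4 and mt-Nd6 at 1006 ± 46.0, 998 ± 53.3 and 949 ± 3.81 TPM. mt-Nd4l stood at 603 ± 54.7 TPM and mt-Nd5 at 481 ± 10.5 TPM. The neighbours mt-Nd3, mt-Nd2 and mt-Nd4 lay within their spread, while mt-Nd1 was above every other member in both libraries. mt-Nd1 also led in input Rosi (2664 ± 134 TPM, n = 3) and in polysome Veh (1338 ± 133 TPM, n = 3). In polysome Rosi it stood at 800 ± 128 TPM beside mt-Nd4 at 756 ± 180 TPM, a gap within the spread. mt-Nd3, second in input Veh, was the lowest member in both polysome groups, at 342 ± 173 TPM in polysome Veh and 178 ± 54.3 TPM in polysome Rosi. The TPM of short mRNAs depends on the effective length, which Salmon set to 79.3 to 81.4 bases for mt-Nd4l, of 297 annotated, and to 111 to 114 bases for mt-Nd3, of 348 annotated. The libraries were also poly(A)-selected, and how well each member, mt-Nd6 of the other strand among them, was captured was not measured.

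The value of mt-Nd3 depended on a nuclear copy. Gm28438 on chromosome 1 is a copy of mt-Nd3 of 345 bases with 99.71% identity. Over these bases it differs from mt-Nd3 by the single substitution T3C, counted from the first base of mt-Nd3. The stretches that hold this base, in capitals, show how little there is to tell reads apart.
mt-Nd3: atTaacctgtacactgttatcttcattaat
Gm28438: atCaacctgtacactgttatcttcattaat
Of the estimated reads of the pair, Gm28438 held 13.9 and 8.91% in input Veh, 16.7, 36.3 and 42.0% in input Rosi, 15.9, 20.7 and 70.7% in polysome Veh, and 12.0, 3.04 and 59.0% in polysome Rosi. In polysome the share varied widely between replicates of a group. When both were added, polysome Veh changed from 32.5 ± 17.1 CPM for mt-Nd3 alone to 49.2 ± 4.63 CPM (SD, n = 3), so that the 3 libraries came together. Input Veh stood at 136 ± 27.4 CPM (n = 2), input Rosi at 128 ± 22.4 CPM and polysome Rosi at 23.3 ± 5.96 CPM (n = 3 each) with the copy added. Of the 5 members with such a copy of at least 95% identity over at least 80% of the copy, mt-Nd3 was the only one where the copy took many reads. The copies of mt-Nd2 and mt-Nd4 held at most 1 and 2.45 reads in a library, and those of mt-Nd4l and mt-Nd5 held 0.

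**Figure D1:**
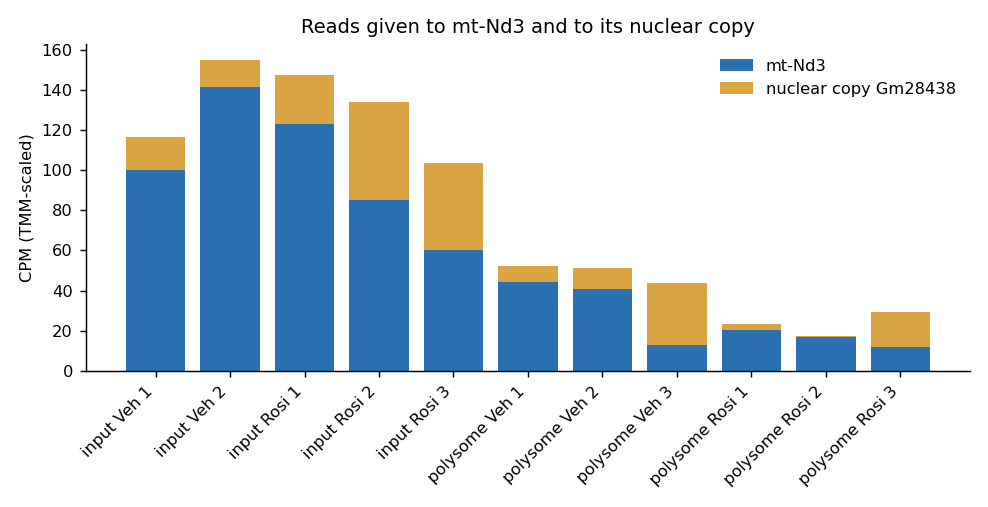
CPM given to mt-Nd3 (blue) and to its nuclear copy Gm28438 (orange) in each of the 11 libraries, stacked. In polysome Veh replicate 3 the copy held 70.7% of the pair's reads against 15.9 and 20.7% in replicates 1 and 2, while the summed height of the 3 bars varied by 4.63 CPM (SD).

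The first comparison asked how Rosi changed the members in total RNA. In input, 6 of 7 members had a positive log2 fold change of Rosi over Veh. mt-Nd4l, one of the small subunits of the membrane arm, was at 44.5 and 42.4 CPM in input Veh and at 57.3, 57.9 and 56.8 CPM in input Rosi. Its groups lay well apart, with a log2 fold change of 0.47 ± 0.09 (SE), or 1.38-fold. mt-Nd4, which is encoded on the same stretch and belongs to the proton-pumping subunits, was at 865 and 1008 CPM in input Veh and at 1288, 1079 and 1013 CPM in input Rosi. Its highest Veh library came close to its lowest Rosi library, and the log2 fold change was 0.33 ± 0.10 (SE). mt-Nd5, the largest of the pumping subunits, was at 626 and 657 CPM and at 825, 729 and 705 CPM (0.30 ± 0.09). mt-Nd2, the third of the pumping subunits, was at 634 and 641 CPM and at 751, 705 and 671 CPM (0.22 ± 0.08). In both genes every Rosi library lay above every Veh library.

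mt-Nd1 was at 1096 and 1273 CPM in input Veh and at 1510, 1370 and 1256 CPM in input Rosi, with a log2 fold change of 0.29 ± 0.09 (SE) and groups that overlapped. mt-Nd6, from the other strand, was at 192 and 207 CPM and at 262, 204 and 193 CPM (0.20 ± 0.11) and groups that overlapped, with input Rosi replicate 1 above the other libraries. That library was the highest of its group for 6 of 7 members. mt-Nd3 was at 100 and 141 CPM in input Veh and at 123, 85.3 and 60.1 CPM in input Rosi (−0.37 ± 0.21). With the reads of its nuclear copy added its log2 fold change was −0.014 ± 0.14 (SE).

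For comparison with all genes, a gene was called higher or lower at an adjusted p under 0.05 in the fit over all genes and an absolute log2 fold change over 0.2. Of the 7 members 1, mt-Nd4l, met this in input as higher and 0 as lower, where 1.13% of 13603 genes were called higher and 0.206% lower. The class was selected on such fold changes in these libraries, so this count is a description and no evidence about it. The groups of 4 members did not overlap, where 36.7% of all genes did not. The median log2 fold change of the members was 0.29, and over all genes tested 0.011. Among the other 6 mitochondrial mRNAs edgeR called 0, with an unadjusted p under 0.05 for 2, and DESeq2 called 1 (mt-Cytb). Of these 6, 3 were above 0, with mt-Cytb, the cytochrome b of complex III, at 0.32 and mt-Atp6, an ATP synthase subunit, at −0.22. The value of mt-Atp6 was −0.0013 with the reads of its nuclear copy, of identical sequence, added. mt-Nd4l passed the rule without input Rosi replicate 1 but not without any other library. Without any 1 of the other 4 its log2 fold change ranged from 0.43 to 0.51, and 0 members were called. Without input Rosi replicate 1, mt-Nd3 also passed, as lower.

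**Figure D2:**
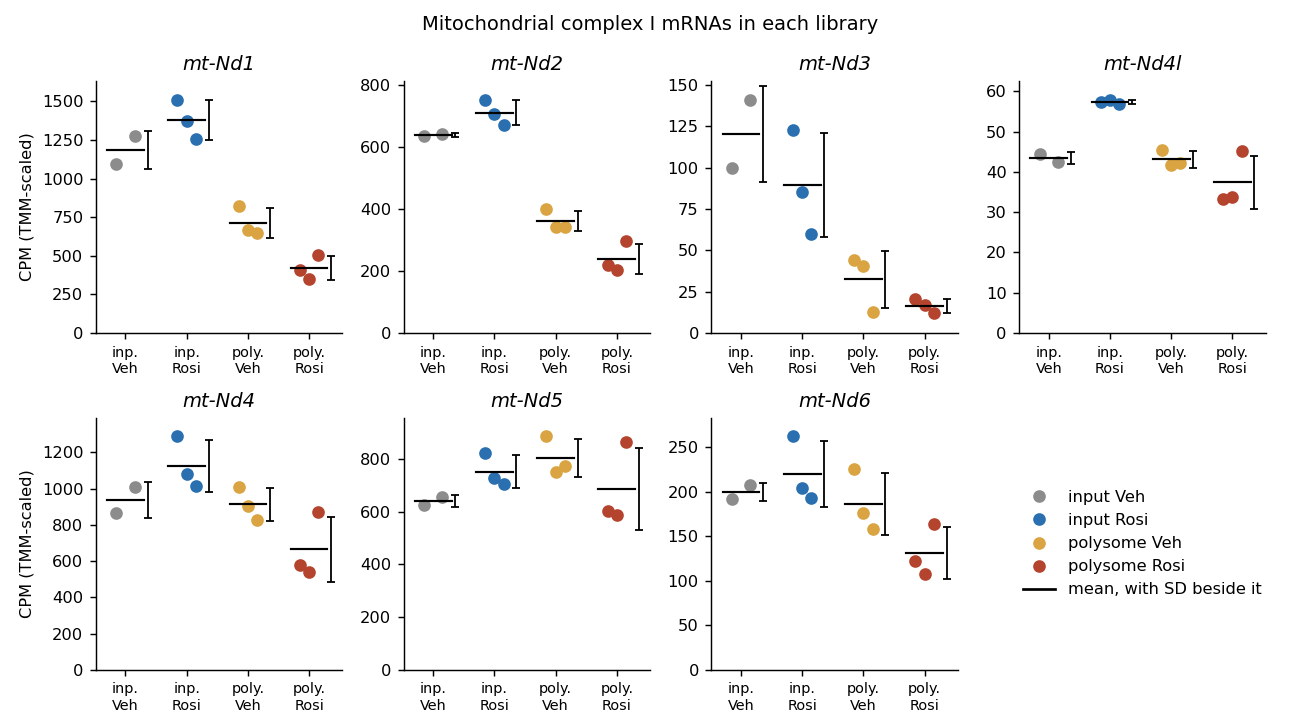
CPM of each complex I mRNA in the 11 libraries (points), by group, with the mean (line) and the SD (bar beside it). Axes start at 0 and differ between genes. In input the 3 Rosi libraries of mt-Nd4l lie at 56.8 to 57.9 CPM above both Veh libraries, and in polysome those of mt-Nd1 lie at 351 to 503 CPM below all 3 Veh libraries.

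In polysomal RNA the direction was the opposite. Every member had a negative log2 fold change of Rosi over Veh, from −0.997 for mt-Nd3 to −0.22 for mt-Nd4l. mt-Nd1 was at 821, 666 and 646 CPM in polysome Veh and at 409, 351 and 503 CPM in polysome Rosi. All its Rosi libraries lay below all its Veh libraries, with a log2 fold change of −0.77 ± 0.14 (SE), or 1.70-fold lower. mt-Nd2 was at 399, 341.0 and 342 CPM in polysome Veh and at 219, 204 and 295 CPM in polysome Rosi, again without overlap (−0.60 ± 0.14). For mt-Nd3 the values were 44.1, 40.7 and 12.9 CPM and 20.5, 16.8 and 12.0 CPM. Veh replicate 3, the library in which the nuclear copy took most of the reads, lay among the Rosi libraries. With the copy added, mt-Nd3 was at 52.4, 51.3 and 43.9 CPM in polysome Veh and at 23.3, 17.3 and 29.2 CPM in polysome Rosi. The groups then did not overlap, and the log2 fold change was −1.09 ± 0.17 (SE).

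The remaining 4 members overlapped between the groups. mt-Nd4 was at 1010, 904 and 829 CPM in polysome Veh and at 577, 542 and 873 CPM in polysome Rosi (−0.47 ± 0.17, SE). mt-Nd4l, called higher in input, was at 45.5, 41.7 and 42.1 CPM and at 33.2, 33.8 and 45.1 CPM (−0.22 ± 0.14). mt-Nd5 was at 887, 750 and 775 CPM and at 602, 589 and 866 CPM (−0.24 ± 0.15). mt-Nd6 was at 225, 176 and 158 CPM and at 122, 108 and 164 CPM (−0.52 ± 0.17). In each of the 4 it was polysome Rosi replicate 3 that reached into the range of the Veh libraries, and this library, which stood apart on the first component, was the highest of its group for 6 of 7 members. Polysome Veh replicate 1, which also stood apart, was the highest of its group for all 7.

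By the same rule as in input, 1 member, mt-Nd1, was called lower in polysome and 0 higher, where 0.0223% of 13436 genes were called lower and 0.633% higher. Only 3 genes were called lower in all, and each of the 3 was a mitochondrial mRNA: mt-Nd1, mt-Co1, the core subunit of cytochrome oxidase, and mt-Atp8, a small subunit of the ATP synthase. These counts are those by which the class was noticed, so they are no evidence about it. The groups of 2 members did not overlap, where 8.95% of all genes did not. The median log2 fold change was −0.52 for the members, −0.79 for the other 6 mitochondrial mRNAs, all of which were below 0, and −0.0078 over all genes. With the reads of nuclear copies added for all 13 mitochondrial mRNAs, 2 members (mt-Nd1 and mt-Nd3) and 5 of the other 6 were called lower, all but mt-Cytb of the latter, where 8 of 13432 genes (0.0596%) were. Without both libraries that stood apart, 3 members (mt-Nd1, mt-Nd2 and mt-Nd4) were called lower, where 25 of 13574 genes (0.184%) were. mt-Nd1 no longer passed when polysome Veh replicate 2, polysome Rosi replicate 1 or polysome Rosi replicate 2 was left out, with 0 members called in each of these cases, and without polysome Rosi replicate 3 or polysome Veh replicate 3 there were 3 and 2.

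**Figure D3:**
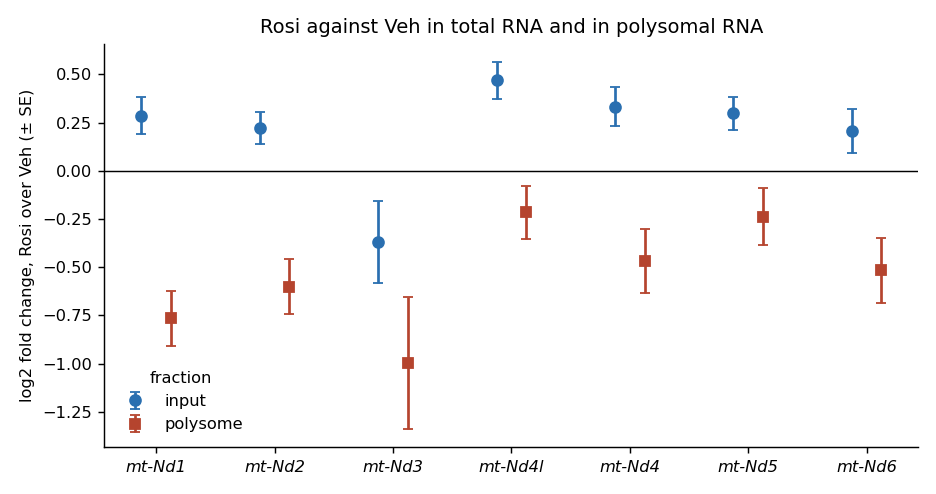
Log2 fold change of Rosi over Veh with its SE for each complex I mRNA in input (blue circles) and in polysome (red squares). In polysome all 7 lie below 0, and in input 6 of 7 lie above 0, with mt-Nd3 at −0.37.

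The share of the members within the mitochondrial mRNAs was set beside the level. The 7 complex I mRNAs made up 28.7 and 29.5% of the reads of the 13 mitochondrial mRNAs in input Veh, 31.2 to 32.2% in input Rosi, 22.7 to 25.3% in polysome Veh and 25.1 to 26.9% in polysome Rosi. Input and polysome did not overlap, whereas the Veh and Rosi polysome ranges did. With the reads of nuclear copies added, the polysome ranges were 22.3 to 24.10% in Veh and 24.07 to 26.8% in Rosi, which overlapped only slightly. The 13 mRNAs together took 1.17 and 1.23% of all gene reads in input Veh, 1.27 to 1.44% in input Rosi, 1.15 to 1.42% in polysome Veh and 0.757 to 1.05% in polysome Rosi. All 13 together were thus lowest in polysome Rosi, whose 3 libraries lay below every other library. Within the 13, mt-Nd5 took 6.38 ± 0.58% in polysome Veh and 8.05 ± 0.41% in polysome Rosi (SD, n = 3 each), while mt-Nd1 took 5.62 ± 0.38 and 4.97 ± 0.20%.

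The next comparison asked how far each member was found in the polysome pool relative to total RNA, and here the 7 differed widely among themselves. Its libraries are those in which the class was selected, so these values are a description too. In Veh, mt-Nd3 stood at −1.89 ± 0.37 on the log2 scale (SE), or 3.71-fold lower in polysome, and at −1.46 ± 0.19 with its nuclear copy added. mt-Nd2 stood at −0.82 ± 0.13 and mt-Nd1 at −0.74 ± 0.14. In these 3 members every polysome library lay below both input libraries. mt-Nd4l and mt-Nd4, which share a stretch of the genome, were at −0.011 ± 0.13 and −0.035 ± 0.17 (SE), and mt-Nd6 was at −0.098 ± 0.18, all with groups that overlapped. mt-Nd5 was at 0.33 ± 0.15, and its 3 polysome libraries all lay above both input libraries.

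In Rosi mt-Nd3, mt-Nd1 and mt-Nd2 were again the lowest, and each of the 7 values lay below its value in Veh. mt-Nd3 stood at −2.44 ± 0.36 (SE), mt-Nd1 at −1.71 ± 0.13 and mt-Nd2 at −1.57 ± 0.12. These are 5.42-fold, 3.27-fold and 2.97-fold lower in polysome than in input. mt-Nd4, mt-Nd6 and mt-Nd4l followed at −0.76 ± 0.15, −0.74 ± 0.16 and −0.62 ± 0.11. In these 6 members every polysome library lay below every input library. mt-Nd5 stood at −0.13 ± 0.13, with groups that overlapped.

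For these comparisons a call also needed an absolute log2 fold change over 1. By that rule 1 member (mt-Nd3) was called lower in Veh and 0 higher, where 6.68% of 14042 genes were called lower and 2.99% higher. In Rosi 3 members (mt-Nd1, mt-Nd2 and mt-Nd3) were called lower and 0 higher, where the shares of all genes were 4.86 and 6.49%. Groups did not overlap for 4 members in Veh and 6 in Rosi, where 64.0 and 65.4% of all genes did not. The median log2 fold change of the members was −0.098 in Veh and −0.76 in Rosi, and over all genes 0.019 and 0.00097. These calls were the same without any 1 library, except that mt-Nd4 was also called lower in Rosi without polysome Rosi replicate 3, at −1.01.

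The 13 mitochondrial mRNAs were set in the order of their genes to see whether neighbours were alike, with the reads of nuclear copies added. In Veh the values were low for mt-Nd1 and mt-Nd2 at one end (−0.74 and −0.82), lowest for mt-Nd3 (−1.46), and highest for mt-Nd5 and mt-Cytb at the other end (0.33 and 0.66). Genes that share an mRNA were close to each other, mt-Nd4l and mt-Nd4 at −0.012 and −0.035, and mt-Atp8 and mt-Atp6 at −0.61 and −0.78. With each such pair joined, 11 mRNAs remained, and their annotated length correlated with polysome over input at a Spearman rho of 0.64 in Veh and 0.58 in Rosi (Pearson r 0.63 and 0.65). Among the 10 on the plus strand, gene order gave a rho of 0.54 and 0.56. Among 14024 nuclear genes effective length and polysome over input had a rho of −0.070 in Veh and −0.12 in Rosi. These correlations run across mRNAs of the same libraries, which are not independent, and are given as a description.

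**Figure D4:**
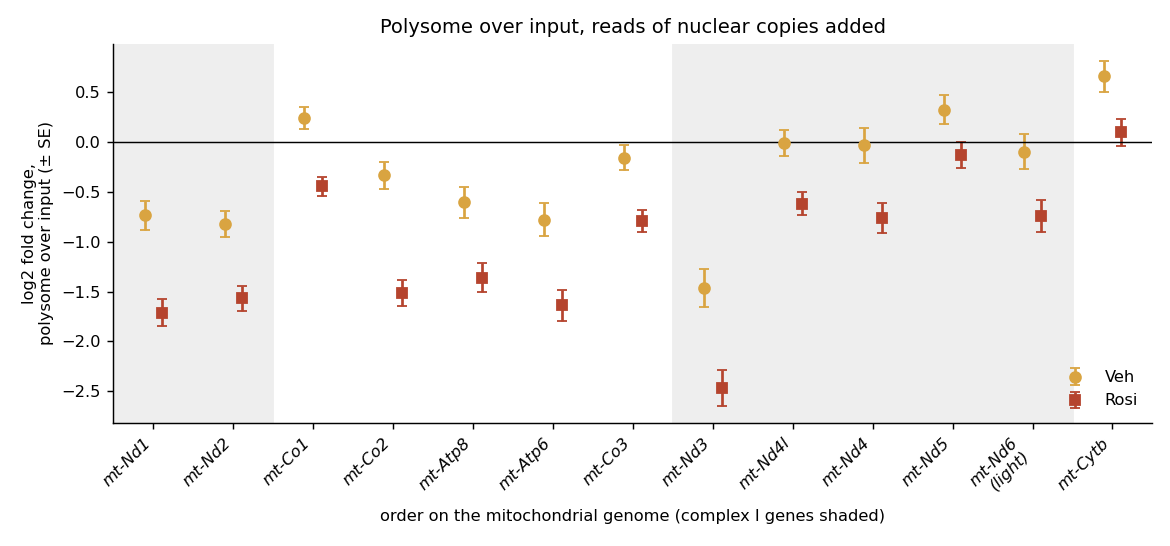
Log2 fold change of polysome over input with its SE for the 13 mitochondrial mRNAs in the order of their genes, in Veh (orange circles) and Rosi (red squares), with the reads of nuclear copies added. Complex I genes are shaded, and mt-Nd6 is on the other strand. The Rosi value lies below the Veh value for each of the 13, and mt-Nd3 is the lowest in both.

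The difference between the 2 treatments in polysome over input, which is the interaction of fraction and treatment and is used as a measure of translation efficiency for mRNAs of the cytosol, was negative for all 7 members. It ranged from −0.98 ± 0.20 (SE) for mt-Nd1 to −0.46 ± 0.20 for mt-Nd5, with a median of −0.65 for the members, −0.67 for the other 6 mitochondrial mRNAs, all below 0, and 0.063 over all genes. The 95% interval ran from −1.40 to −0.55 for mt-Nd1, from −1.14 to −0.36 for mt-Nd2, from −0.97 to −0.24 for mt-Nd4l, from −1.22 to −0.23 for mt-Nd4, from −1.16 to −0.13 for mt-Nd6 and from −0.88 to −0.043 for mt-Nd5. It ran from −1.64 to 0.54 for mt-Nd3, the least precise of the 7, whose value with its nuclear copy was −1.001 ± 0.26 (SE). Because the members' values in both treatments had a part in the choice of the class, the intervals describe precision only. A call again needed an absolute log2 fold change over 1. In edgeR no member reached this cut or an adjusted p under 0.05, so 0 members were called, and 0% of 14042 genes were. An unadjusted p under 0.05 was found for 6 of 7 members, all 6 lower, and for 961 of the 14042 genes, 335 of them lower. The class was chosen in these libraries, so this count is a description and no evidence about it. DESeq2 called 0 members and 1 gene in all. Under some alternatives mt-Nd2, mt-Nd4, mt-Nd4l and mt-Nd6 had an adjusted p under 0.05 and stayed uncalled because they lay inside the fold cut. Without both polysome libraries that stood apart, mt-Nd1 passed the rule at −1.05, as 1 of 8 genes among 13955. That removal was chosen after values were seen and drops polysome Rosi replicate 3, the highest of its group for 6 of 7 members.

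The nuclear subunits of the same complex had values of the opposite sign, a difference between classes that was not tested. Of the 7 nuclear core subunits, which carry the flavin and iron-sulphur clusters, all 7 had a positive interaction, with a median of 0.22, and of the 29 accessory subunits all 29 did, with a median of 0.33. Over all genes tested 40.9% were below 0. The 10 macrophage markers and 5 regulators of mitochondrial biogenesis were also all above 0, with medians of 0.25 and 0.28. The assembly factors of complex I were mixed, with 10 above 0 and 6 below. Of the 36 nuclear subunits, edgeR called 0, with an unadjusted p under 0.05 for 1 core and 9 accessory subunits, and DESeq2 called 0. Ndufs8, a core subunit with iron-sulphur clusters, stood at 0.39 ± 0.16 (SE), and the accessory subunits Ndufb4, Ndufb10 and Ndufa3 at 0.64 ± 0.24, 0.36 ± 0.16 and 0.46 ± 0.21. In input the nuclear subunits leaned below 0, with a median log2 fold change of Rosi over Veh of −0.079 for the core and −0.14 for the accessory subunits (25 of 29 below 0, against 48.1% of all genes). In polysome they leaned above, with medians of 0.069 and 0.078 (25 of 29 accessory subunits above 0, where 52.3% of all genes were below). In input edgeR called 0 of 36, with an unadjusted p under 0.05 for 7, and in polysome 0 of 36, with an unadjusted p under 0.05 for 0, and DESeq2 called 0 in both. The mitochondrial members leaned the other way in each fraction, at 0.29 in input and −0.52 in polysome.

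**Figure D5:**
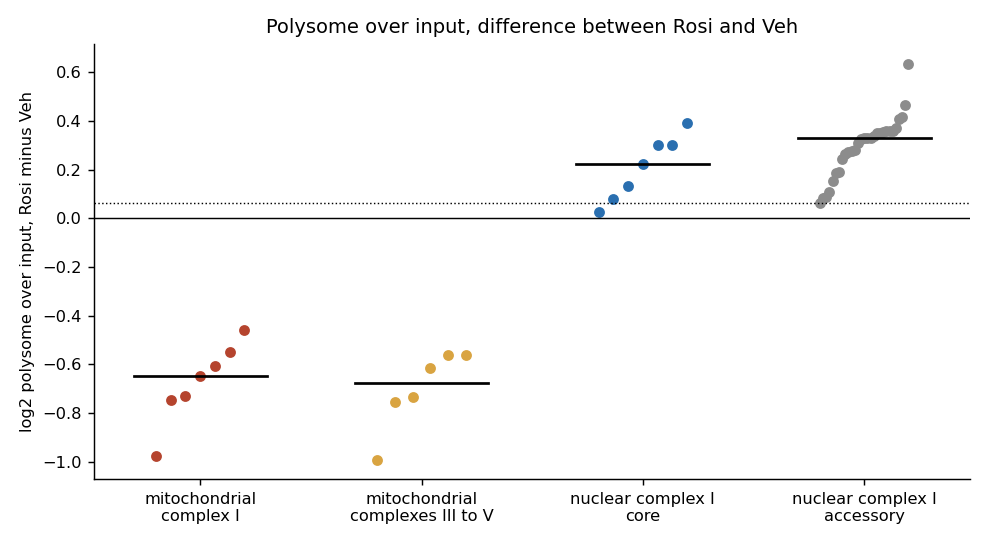
Difference between Rosi and Veh in log2 polysome over input, 1 point per gene, for the 7 mitochondrial complex I mRNAs, the other 6 mitochondrial mRNAs, and 7 core and 29 accessory complex I subunits of the nucleus. Bars are medians (−0.65, −0.67, 0.22 and 0.33) and the dotted line is the median of all genes, 0.063.

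For polysome over input itself, the accessory subunits had a median of 0.28 in Veh and 0.67 in Rosi. In Rosi 5 of 29 were called higher and 0 lower, where 6.49% of 14042 genes were called higher and 4.86% lower. The 5 included Ndufb3, Ndufa5 and Ndufa1 at 1.05 ± 0.11, 1.202 ± 0.13 and 1.07 ± 0.12 (SE), with adjusted p of at most 4.16e-06 in edgeR. Of the 7 core subunits 1 was called in Veh, as lower, where 6.68% of all genes were called lower. It was Ndufv1, the subunit that oxidises NADH, at −1.02 ± 0.11 (adjusted p = 4.15e-06, edgeR). The 16 tested factors that assemble complex I had a median of 0.12 in Veh and 0.38 in Rosi. In Rosi 1 of the 16, Ndufaf4, was called higher at 1.28 ± 0.13, where 6.49% of all genes were called higher.

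Nuclear genes that make, process and translate mitochondrial mRNAs had no call for Rosi against Veh in either fraction. The 46 tested were 21 genes of mitochondrial transcription and RNA processing, 12 translation factors, 8 genes of mitochondrial DNA maintenance and 5 regulators of biogenesis. In input edgeR called 0 of 46, with an unadjusted p under 0.05 for 2, and in polysome 0 of 46, with an unadjusted p under 0.05 for 0, and DESeq2 called 0 in both. The median log2 fold changes of the 4 lists were 0.014, 0.059, −0.017 and 0.102 in input and 0.016, −0.044, 0.0083 and 0.15 in polysome. Grsf1, which binds G-rich mitochondrial RNA, stood at 0.22 ± 0.11 (SE) in input and 0.099 ± 0.11 in polysome. In polysome over input, 5 of the 46 were called in Veh, where 2.99% of 14042 genes were called higher and 6.68% lower. Transcription and RNA processing had 1 higher and 1 lower, translation factors 1 higher and 1 lower, and biogenesis 1 lower. In Rosi 6 were called, where the shares were 6.49 and 4.86%. Higher were 3 genes of transcription and RNA processing, 1 translation factor and 1 gene of DNA maintenance. Lower was 1 regulator of biogenesis. Polrmt, the mitochondrial RNA polymerase, was called lower in Veh at −1.36 ± 0.17 and stood just short of a call in Rosi at −0.99 ± 0.15. Slirp, a protein that protects mitochondrial mRNAs, was called higher in Veh at 1.04 ± 0.17 and in Rosi at 1.29 ± 0.15. Tufm, the mitochondrial elongation factor that brings transfer RNA, was called lower in Veh at −1.01 ± 0.11. Ribosomal RNAs of the mitochondrion were not analysed here.

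Across the 11 libraries the profiles of most members were alike, and that of mt-Nd5 was the least alike. Within groups mt-Nd5 was highest in polysome Veh replicate 1, polysome Rosi replicate 3 and input Rosi replicate 1, as most members were. The Pearson correlation of a member's centred log2 CPM with the mean of the other 6 was 0.98 for mt-Nd1, 0.96 for mt-Nd2, 0.91 for mt-Nd6, 0.89 for mt-Nd4, 0.81 for mt-Nd4l, 0.79 for mt-Nd3 and 0.24 for mt-Nd5. Other genes were ranked by the likeness of their profile to the mean of the members over the 11 libraries. The nuclear copies and genes with only a Gm or Rik name were left out. The first 5 were mt-Co2 (r = 0.96), mt-Atp8 (0.96), Nt5c2, a cytosolic nucleotidase (0.95), mt-Atp6 (0.95) and Pcdhgb7, a protocadherin (0.94). mt-Co1 and mt-Cytb had an r of 0.31 and −0.16. The libraries share their fraction, which sets much of these profiles, and the correlations are a description of 11 points. mt-Nd5, mt-Co1 and mt-Cytb, the mRNAs with the lowest of these correlations, were also those whose polysome over input in Veh was above 0.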

How the data were processed

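The authors sequenced poly(A)-selected libraries, demultiplexed with bcl2fastq 2.17, and quantified transcripts with Salmon against mm10 (its version is not given in the sources used here). The authors deposited an estimated count (expected count), a TPM and an effective length per transcript. Here 115973 of 117135 transcripts matched a gene of GENCODE M21, and the other 1162 held 0.381 to 0.464% of reads. Estimated counts were summed per gene and rounded. CPM used TMM sizes of the 4-group fit. TPM served to compare genes, and in 1 alternative.

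Genes were tested in R 4.3.3 with edgeR 4.0.16 (quasi-likelihood, two-sided), low counts removed by filterByExpr, with Benjamini-Hochberg adjustment over all genes. Input and polysome were each fitted alone for Rosi against Veh, and the rest in 1 fit of 4 groups. The SE was derived from the log2 fold change and its F statistic. P-values measure only the spread between libraries labelled as biological replicates. Genes named were the members, the other mitochondrial mRNAs, at most 3 genes per list, taken by p, and the 5 genes most alike. Length correlations and the joint removal of 2 libraries were chosen after values were seen. Nuclear copies were found with blastn. The members and the lists were chosen with earlier results of these data known. The tests were checked on simulated data. Alternatives used DESeq2 1.42.0 and limma 3.58.1. The treatment protocol gives 4 days of differentiation, and the series' design text another number.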

Additional observations from a re-analysis of the deposited data

Results flagged for a closer look

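mt-Nd2 stood out because every Rosi library lay above every Veh library in input (671 to 751 against 634 and 641 CPM) and below every Veh library in polysome (204 to 295 against 341 to 399 CPM). The difference between the fold changes of the 2 fractions was −0.75 ± 0.18 on the log2 scale (SE), and edgeR over all genes did not call it. The difference was not tested apart from the libraries by which the class was chosen. No other member had both groups apart in opposite directions. Over all genes tested, groups did not overlap for 36.7% in input and for 8.95% in polysome. The share of all genes apart in both fractions and in opposite directions was not counted, so nothing is read from the flag about mt-Nd2. Groups of 2 or 3 libraries are too small for a test of outlying samples, and none was made.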

How the results depend on the processing

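Across 35 results of single members and their alternatives (651 values), 9 changed sign and 35 gained or lost a call. The counts of members are descriptions, since the class was chosen in these libraries. For Rosi against Veh in input, where 1 member was called, 2 were called with DESeq2, 5 without a count filter (4 higher and mt-Nd3 lower), 3 with all 12 libraries as deposited, and 0 with limma on log2(TPM + 1), in 1 fit of all groups or with a replicate block, and 0 to 2 without 1 library. In polysome, 2 were called with DESeq2, in 1 fit of all groups, with the reads of nuclear copies added or with the block, 5 without a filter, 0 with limma, 3 without both libraries that stand apart, and 0 to 3 without 1 library. Same-numbered libraries correlated at −0.337 to 0.169 in their deviations. Between input and polysome of the same treatment the values were 0.11 and 0.17 in Veh and −0.11 to −0.013 in Rosi. The paper describes input as total RNA taken before fractionation. Groups of 2 or 3 libraries are too small for these correlations to decide whether the numbers pair libraries. The block changed no call in the other comparisons. Polysome over input gave 1 member in Veh under every alternative and 3 or 4 in Rosi, and the interaction 0, except 1 without both libraries that stand apart. For polysome over input in Veh, values near 0 changed sign: mt-Nd4l was at 0.0029 with all 12 libraries and 0.090 with limma, mt-Nd4 at 0.052 with limma, and without 1 library mt-Nd4l ranged from −0.061 to 0.024, mt-Nd4 from −0.14 to 0.081 and mt-Nd6 from −0.26 to 0.0097. Ordered by reads per kilobase of annotated length, 2 of 7 members kept their place in input Veh, and mt-Nd3 moved from place 2 to 6. Over all genes the calls in input (182) ranged from 50 to 1580, in polysome (88) from 45 to 189, in polysome over input from 841 to 1705 in Veh (1358) and from 868 to 1769 in Rosi (1593), and in the interaction (0) from 0 to 57. With 1 library left in input Veh its spread was taken from the other groups. Scaling to nuclear genes or by RLE changed no call of a member.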
